A study of Mus musculus with 9 samples.

Results

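Myostatin and activin signalling was followed through 10 genes, chosen by symbol from the 32594 genes of the deposited count table: the ligand genes Mstn, Gdf11, Inhba and Inhbb, the antagonist genes Fst and Fstl3, the type II receptor genes Acvr2a and Acvr2b, and the type I receptor genes Acvr1b and Tgfbr1. All 10 were found. RNA had been measured in hindlimb skeletal muscle, in 4 libraries of SMN delta 7 mice, called SMA here, and 5 libraries of wild type mice, called WT. All were on the FVB/N background. SMN delta 7 mice are a model of spinal muscular atrophy, in which too little survival motor neuron protein leads to loss of motor neurons and wasting of muscle. As generally described, the model lacks functional mouse Smn1 and carries human SMN transgenes. The labels give neither the alleles, nor the age, nor which hindlimb muscle was taken. Nothing in them says that each library came from its own animal, and p-values therefore measure only the variation among these libraries, part of which may be technical.

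Myostatin, GDF11 and the activins are secreted dimers of the TGF-beta superfamily. They bind a type II receptor kinase, which recruits and activates a type I receptor, which in turn phosphorylates Smad2 and Smad3 so that these enter the nucleus with Smad4. In skeletal muscle the pathway restrains growth: animals without myostatin have enlarged muscles, and follistatin, which traps these ligands outside the cell, has the opposite effect to them.

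Total counts ran from 30746646 to 35087722 in the SMA libraries and from 24917665 to 34094645 in the WT libraries. Smn1 checked the labels, with 1.40 to 2.72 CPM (reads of a gene scaled to one common library size, after TMM scaling) in SMA and 11.1 to 13.8 CPM in WT. On principal components SMA 3 stood apart from the other SMA libraries, at -43.4 on the second component against 14.6 to 15.4. WT 5 lay outside the other WT libraries, at 18.2 on that component against -16.5 to 1.83. On the first component it lay at -53.5, against -44.3 to -37.2. Y-linked genes were expressed in 1 of 4 SMA libraries and 4 of 5 WT libraries, which left 1 SMA library to set against 4 WT libraries, and 3 SMA libraries against 1 WT library. Groups were therefore not compared within a sex, and sex entered 1 of the alternative fits as a term. Muscle fibre markers were abundant in every library, and none of the markers matched, of any cell type listed, was at 0 in any library. Markers of other cells in muscle were counted at the threshold given below, which 54.9% of all genes tested passed. Of these markers, 2 rose and 1 fell of 4 for satellite cells, and 1 rose and 3 fell of 5 for fibro-adipogenic cells. For each of endothelium, mural cells, macrophages and adipocytes, 2 of 4 fell and 2 did not pass. The falls were 1.25- and 1.32-fold in endothelium, 1.64- and 2.26-fold in mural cells, 1.72- and 3.29-fold in macrophages, and 3.20- and 48.1-fold in adipocytes. Both red blood cell markers matched, Hba-a2 and Hbb-bs, fell, with sums of 596 to 948 CPM in SMA and 1205 to 2022 CPM in WT. The log2 fold changes of the 4 slow fibre markers, -0.37 to 0.18, missed the threshold, with sums of 841 to 1209 CPM in SMA and 504 to 1826 CPM in WT.

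In SMA muscle the genes of myostatin and its close relative GDF11 were lower, and those of the receptor ActRIIB and the antagonist follistatin were higher. Mstn was 3.25-fold lower, Gdf11 3.16-fold lower and Acvr1b 1.59-fold lower in SMA. Acvr2b was 4.18-fold higher, Inhbb 1.69-fold higher and Fst 1.67-fold higher. Of the 10 genes, 9 passed the filter on low counts, and Inhba did not. Of these 9, 3 rose, 3 fell and 3 missed the threshold, which was a Benjamini-Hochberg adjusted p below 0.05 in edgeR's quasi-likelihood test, beside 54.9% of all 15873 genes tested (27.7% rose and 27.2% fell). Changes of 2-fold or more that passed the threshold numbered 3 among the 9, beside 14.5% of all genes. The median log2 fold change of the 9 was 0.038, against 0.0060 over all genes. The groups did not overlap for 5 of the 9, beside 44.2% of all genes. In 3 of these 5 the SMA libraries lay above, beside 22.6% of all genes, and in 2 they lay below, beside 21.7%.

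**Figure D1:**
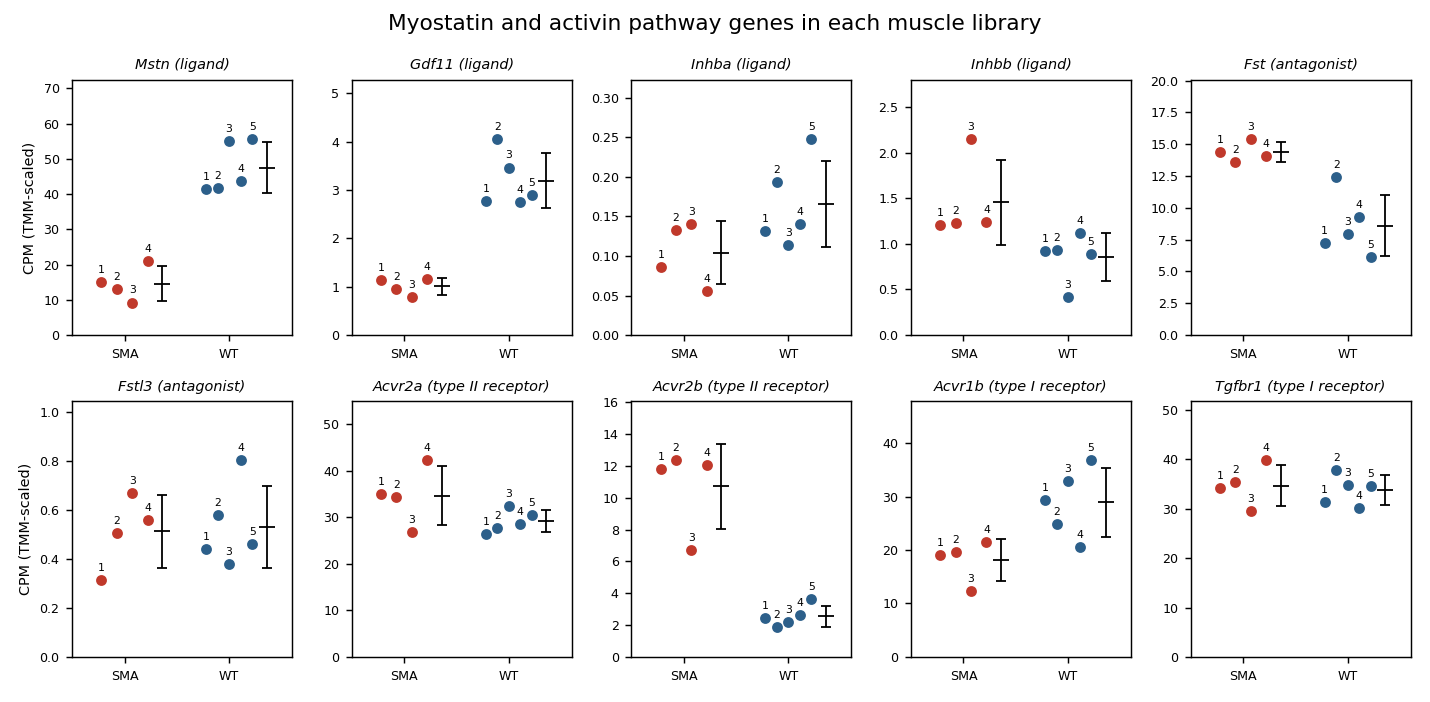
Each panel plots the CPM of 1 gene in every library, SMA in red and WT in blue, numbered by replicate, with the group mean and SD as a black bar. Mstn and Gdf11 lay lower in all 4 SMA libraries than in any WT library, Acvr2b and Fst lay higher in all 4, and Tgfbr1 overlapped.

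Mstn encodes myostatin, a growth inhibitor made mainly by muscle fibres (chromosome 1, 53061640 to 53068079, plus strand, mm10). Its level was 15.1, 13.1, 9.25 and 21.1 CPM in SMA libraries 1 to 4, against 41.6, 41.7, 55.1, 43.6 and 55.7 CPM in WT libraries 1 to 5. All SMA libraries lay below all WT libraries, with SMA 3 the lowest and SMA 4 the highest of the SMA group. The log2 fold change of Mstn was -1.70 ± 0.20 (SE), and edgeR's quasi-likelihood test gave it a Benjamini-Hochberg adjusted p of 2.49e-05. Of all genes tested, 1.99% had a lower log2 fold change than Mstn.

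Gdf11 encodes growth differentiation factor 11, the closest relative of myostatin, best known for its part in patterning the body axis (chromosome 10, 128882295 to 128891718, minus strand). It had 1.15, 0.959, 0.783 and 1.15 CPM in the SMA libraries, against 2.77, 4.07, 3.47, 2.76 and 2.91 CPM in the WT libraries. Every SMA library was below every WT library, although the counts behind these levels were small, 28 to 41 reads in SMA and 63 to 126 reads in WT. Gdf11 had a log2 fold change of -1.66 ± 0.19 (SE), and its adjusted p by edgeR's quasi-likelihood test was 2.49e-05. Within each library, the level of Gdf11 relative to Mstn, both per kb of exon, averaged 0.0480 ± 0.0084 in SMA and 0.0456 ± 0.0114 in WT (SD, n = 4 and 5), with overlapping libraries.

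The 250 bases upstream of the start sites of Mstn, Gdf11 and Acvr2b are shown because these were the 3 members with at least a 2-fold change, Mstn and Gdf11 lower and Acvr2b higher in SMA. They are RefSeq promoter sequences of build GRCm38.p6, read 5′ to 3′ on the strand of the gene, with each E-box (CANNTG, the motif of MyoD-family and other helix-loop-helix factors) in capitals.
Mstn promoter, chr1:53061390-53061639, plus strand: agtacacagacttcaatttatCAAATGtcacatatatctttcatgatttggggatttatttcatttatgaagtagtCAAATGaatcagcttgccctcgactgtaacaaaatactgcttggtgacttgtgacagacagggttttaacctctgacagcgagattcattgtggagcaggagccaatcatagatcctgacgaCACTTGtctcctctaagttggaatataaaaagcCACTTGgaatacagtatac
Gdf11 promoter, chr10:128891719-128891968, minus strand: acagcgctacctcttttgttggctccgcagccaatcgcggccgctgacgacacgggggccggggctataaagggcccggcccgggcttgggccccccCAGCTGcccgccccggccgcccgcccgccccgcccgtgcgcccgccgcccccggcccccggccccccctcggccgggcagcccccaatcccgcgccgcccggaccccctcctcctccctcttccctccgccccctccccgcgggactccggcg
Acvr2b promoter, chr9:119401928-119402177, plus strand: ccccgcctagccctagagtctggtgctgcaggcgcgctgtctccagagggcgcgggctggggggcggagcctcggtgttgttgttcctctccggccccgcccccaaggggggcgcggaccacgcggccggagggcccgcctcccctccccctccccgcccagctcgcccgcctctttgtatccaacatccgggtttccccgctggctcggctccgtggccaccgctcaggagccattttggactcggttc
The Mstn window held 4 E-boxes, the nearest 19 to 14 bases before the start, and 3.84% of the 32851 mouse promoter windows of the same length held 4 or more. Its GC content was 38.4%, against a median of 52.4% over all windows, 81.2% for Gdf11 and 72.8% for Acvr2b. The Gdf11 window held 1 E-box and the Acvr2b window none, and 66.2% of all windows held at least 1. The sequence TATAAA, searched on both strands, began 29 bases before the Mstn start and 185 bases before the Gdf11 start and occurred in 12.4% of all windows. The Mstn window also held 1 CAGACA, a sequence bound by Smad proteins, which was found in 17.1% of windows on either strand and in neither of the other 2 shown. The FoxO sequence TGTTTAC was in none of these 3 windows and in 3.17% of all. The motifs found in the Mstn window did not overlap each other. A match of letters is a description and not evidence of binding. RefSeq windows matched 9 of the 10 members. The Acvr2b window follows the RefSeq start and runs past 119402118, the start of the gene as placed below. The other 2 windows shown end where their genes start.

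Markers of fast muscle fibres were lower in SMA, as were Mstn and Gdf11. The summed level of the 4 fast IIb fibre markers was 22200 to 30070 CPM in SMA and 66470 to 96660 CPM in WT, and all 4 fell. Their falls were unlike in size, 2.35-fold for Myh4, 4.55-fold for Actn3, 6.84-fold for Mybpc2 and 21.7-fold for Pvalb. Myh4 made up most of the sum, on average 23520 of 26380 CPM in SMA and 55384 of 85580 CPM in WT. A ratio to this sum therefore depends on the mix of markers, and ratios to single markers were not computed. Of 6 general muscle fibre markers 5 fell and 1 did not pass, with sums of 34230 to 44480 CPM in SMA and 63210 to 92520 CPM in WT. Scaled in the manner of CPM, but to the summed counts of the fast IIb markers in place of the library total, Mstn stood at 417 to 701 in SMA and 433 to 628 in WT, so the libraries overlapped on this scale, with means of 545 ± 126 and 561 ± 75.9 (SD, n = 4 and 5). Gdf11 likewise overlapped, at 34.8 to 44.5 in SMA and 28.8 to 61.2 in WT. Against the general muscle fibre markers the mean of Mstn in SMA was 0.587 of that in WT, with 270 to 519 in SMA and 488 to 667 in WT, and 1 SMA library lay within the WT range. Gdf11 did not overlap on that second scale, at 22.2 to 28.4 in SMA and 31.4 to 64.3 in WT, and its mean in SMA was 0.590 of that in WT. Acvr2b and Fst, scaled to the fast IIb markers, stood at 302 to 459 in SMA and 23.9 to 37.8 in WT for Acvr2b, and at 469 to 695 in SMA and 63.8 to 187 in WT for Fst. In every SMA library both genes were higher, and the marker sum lower, than in any WT library. For these genes the groups therefore could not have overlapped on this scale, and nothing is concluded from their separation. In bulk muscle, fewer fibres of a type and less RNA per fibre cannot be told apart. These ratios were chosen after the values were seen.

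Activin genes were near the limit of detection. Inhba, which encodes the activin beta A subunit (chromosome 13, 16011851 to 16031621, plus strand), had 3, 5, 5 and 2 reads in the SMA libraries and 3, 6, 3, 4 and 7 reads in the WT libraries. Its levels overlapped, at 0.0561 to 0.140 CPM in SMA and 0.114 to 0.248 CPM in WT. Fitted with no filter on low counts, its adjusted p was 0.321 by edgeR, and a difference was not detectable at this depth. The span of the antisense gene Gm48444, introns included, overlaps 5379 of the 6390 bases of its exons. Gm48444 was not found under this name in the deposited counts, and the strand setting of the counting is not given in the sources used here.

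Inhbb, the gene of the activin beta B subunit (chromosome 1, 119415465 to 119422248, minus strand), had 1.20, 1.22, 2.15 and 1.24 CPM in SMA, against 0.923, 0.936, 0.419, 1.12 and 0.886 CPM in WT. SMA 3 was far above the other 3 SMA libraries, and those 3 lay just above the highest WT library. The log2 fold change of Inhbb was 0.76 ± 0.29 (SE), just inside the threshold, and its adjusted p by edgeR's quasi-likelihood test was 0.0424. The call was lost without any 1 of SMA 1, 2, 3 or 4 or WT 1, 2, 3 or 5, with log2 fold changes of 0.51 to 0.84 and adjusted p-values of 0.0507 to 0.132 by edgeR. It was also lost with sex as a covariate, where the adjusted p of Inhbb was 0.0661 by edgeR. Without SMA 3 the log2 fold change of Inhbb was 0.51.

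Fst encodes follistatin, which binds activins, myostatin and GDF11 outside the cell and keeps them from their receptors (chromosome 13, 114452290 to 114458951, minus strand). Its level was 14.4, 13.6, 15.4 and 14.1 CPM in the SMA libraries, against 7.25, 12.4, 7.93, 9.26 and 6.17 CPM in the WT libraries. The SMA libraries lay close together above all WT libraries, of which WT 2 was nearest. Fst rose by 0.74 ± 0.17 on the log2 scale (± SE), and its adjusted p by edgeR's quasi-likelihood test was 0.00263. Its direction and call held in all 18 alternatives, with log2 fold changes of 0.60 to 0.95. Its exons overlap the span of the antisense gene Gm47040, introns included, over 289 bases, and Gm47040 was not found under this name in the deposited counts.

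Fstl3 encodes a follistatin-like protein that also binds activin and myostatin (chromosome 10, 79777272 to 79782630, plus strand). It had 11 to 24 reads in SMA and 10 to 23 reads in WT, or 0.315 to 0.671 CPM in SMA and 0.381 to 0.804 CPM in WT. The groups overlapped over nearly their whole range. The log2 fold change of Fstl3 was -0.062 ± 0.30 (SE), with a 95% interval of -0.72 to 0.59, so its direction was not resolved. It turned positive under scaling to total counts, with sex as a covariate, and without SMA 1 or WT 4. Its exons overlap the span of the gene Prss57, introns included, on the opposite strand over 1157 bases, and Prss57 itself held 0 to 4 reads.

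Of the type II receptor genes, Acvr2b rose and Acvr2a did not pass, and the difference between their changes was not tested. Acvr2b encodes ActRIIB, the type II receptor that myostatin preferred in binding studies (chromosome 9, 119402118 to 119434995, plus strand). It had 11.8, 12.4, 6.71 and 12.0 CPM in the SMA libraries, against 2.46, 1.90, 2.17, 2.62 and 3.65 CPM in the WT libraries. All SMA libraries were above all WT libraries, and SMA 3 was the lowest of the SMA libraries by a wide margin. Acvr2b rose by 2.06 ± 0.21 on the log2 scale (± SE), and its adjusted p by edgeR's quasi-likelihood test was 9.72e-06. Of all genes tested, 1.63% had a higher log2 fold change. Without SMA 3 it rose by 2.23, and over all 18 alternatives its log2 fold change lay between 1.96 and 2.40.

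Acvr2a encodes ActRIIA, the other type II receptor of the activins (chromosome 2, 48814109 to 48903269, plus strand). Its level was 35.0, 34.4, 26.8 and 42.2 CPM in SMA, against 26.5, 27.7, 32.4, 28.5 and 30.5 CPM in WT. SMA 1, 2 and 4 lay above every WT library and SMA 3 lay among the lowest of them. Its log2 fold change was 0.25 ± 0.12 (SE), with a 95% interval of -0.0038 to 0.50 and an adjusted p of 0.0877 by edgeR, so it did not pass. It passed without SMA 3, with a log2 fold change of 0.35 and an adjusted p of 0.00657 by edgeR, and under scaling to total counts, at 0.48. Its exons overlap the span of the gene Orc4, introns included, on the opposite strand over 446 bases, and Orc4 itself held 435 to 738 reads.

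Within a library, where the scaling cancels, Acvr2b stood at 0.488, 0.520, 0.363 and 0.413 of the level of Acvr2a per kb in SMA 1 to 4, against 0.135, 0.0993, 0.0970, 0.133 and 0.173 in WT 1 to 5. As a share of both type II receptors per length, Acvr2b took 30.7% ± 3.43 in SMA and 11.3% ± 2.43 in WT (SD, n = 4 and 5), with no overlap. Schwann cell markers were also higher in SMA, where all 4 rose, with sums of 720 to 1689 CPM in SMA and 266 to 646 CPM in WT. Their part in the rise of Acvr2b was not tested.

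Of the type I receptor genes, Acvr1b fell and Tgfbr1 did not pass. Acvr1b encodes ALK4, the main type I receptor of the activins and one that myostatin uses (chromosome 15, 101174067 to 101213684, plus strand). It had 19.1, 19.7, 12.4 and 21.5 CPM in the SMA libraries, against 29.4, 24.8, 33.0, 20.7 and 36.8 CPM in the WT libraries. SMA 4 lay above WT 4, so the groups overlapped. Acvr1b fell by 0.67 ± 0.18 on the log2 scale (± SE), and its adjusted p by edgeR's quasi-likelihood test was 0.00810. The call held in all 18 alternatives, with a highest adjusted p of 0.0473 by edgeR.

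Tgfbr1 encodes ALK5, the type I receptor that serves TGF-beta and also myostatin and GDF11 (chromosome 4, 47353222 to 47414931, plus strand). Its level was 34.1, 35.4, 29.5 and 39.8 CPM in SMA, against 31.3, 37.9, 34.8, 30.2 and 34.6 CPM in WT. The groups overlapped throughout. The log2 fold change of Tgfbr1 was 0.038 ± 0.097 (SE), with a 95% interval of -0.17 to 0.25, and it was -0.034 without SMA 4 and 0.27 under scaling to total counts. Acvr1b stood at 0.768 ± 0.0983 of the level of Tgfbr1 per kb in SMA and at 1.27 ± 0.265 in WT (SD, n = 4 and 5), and the libraries of the groups did not overlap on this ratio.

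**Figure D2:**
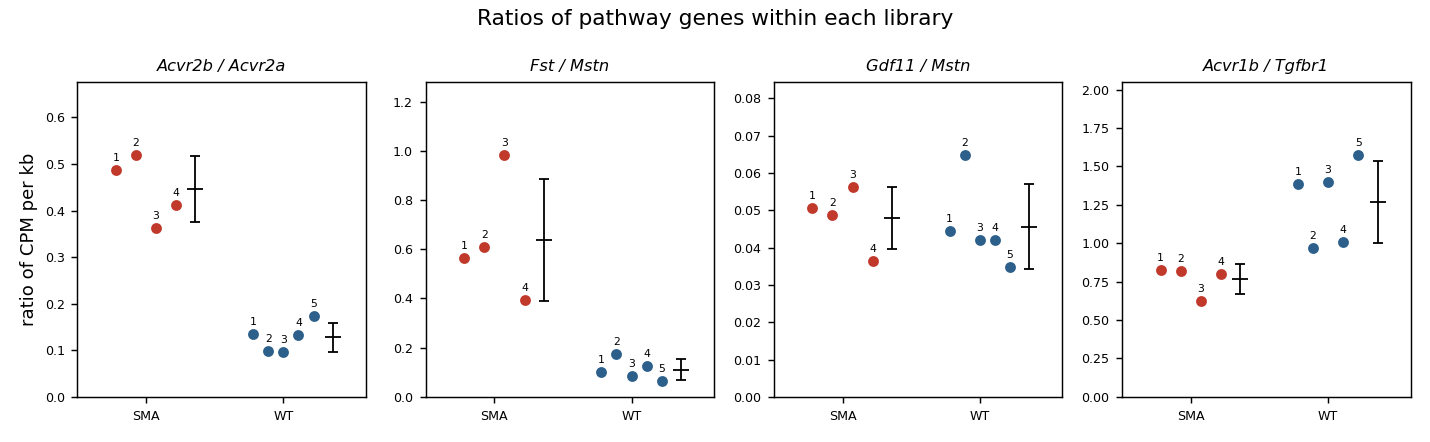
Ratios of 2 genes within each library, from CPM per kb of merged exons, with SMA libraries in red, WT libraries in blue, numbered by replicate, and mean and SD in black. The groups are apart for Acvr2b over Acvr2a (0.363 to 0.520 in SMA, 0.0970 to 0.173 in WT) and for Fst over Mstn, and overlap for Gdf11 over Mstn. For Fst over Mstn the gap only restates that Fst was higher and Mstn lower in every SMA library.

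Levels of the genes were compared with each other only per length, as CPM per kb of merged exon length in GENCODE M21, since the annotation behind the counts is not given in the sources used here. In SMA muscle Acvr2a, at 6.09 ± 1.11 CPM per kb, Mstn, at 5.41 ± 1.82, Tgfbr1, at 5.31 ± 0.647, and Acvr1b, at 4.12 ± 0.901, came first (SD, n = 4), and the libraries of each overlapped those of the next. In WT muscle Mstn came first at 17.6 ± 2.67 CPM per kb, above all other members in every WT library, followed by Acvr1b at 6.55 ± 1.45, Tgfbr1 at 5.17 ± 0.469 and Acvr2a at 5.12 ± 0.415 (SD, n = 5), and the receptors overlapped among themselves.

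The middle of the order changed as well. Fst and Acvr2b came next in SMA, at 3.13 ± 0.170 and 2.73 ± 0.684 CPM per kb, with overlapping libraries. In WT these places were held by Fst at 1.88 ± 0.525, Gdf11 at 0.786 ± 0.140 and Acvr2b at 0.652 ± 0.170 CPM per kb, and Gdf11 and Acvr2b overlapped. Means of Inhbb, Gdf11 and Fstl3 lay between 0.210 and 0.342 CPM per kb in SMA, and those of Fstl3 and Inhbb were 0.218 and 0.201 CPM per kb in WT, and Inhba was the lowest member in both. The level of Fst relative to Mstn per kb was 0.563, 0.610, 0.983 and 0.394 in SMA 1 to 4, against 0.103, 0.175, 0.0849, 0.125 and 0.0652 in WT 1 to 5. The ratio was thus higher in each SMA library than in any WT library, with means of 0.637 ± 0.248 in SMA and 0.111 ± 0.0424 in WT (SD, n = 4 and 5). Fst was higher and Mstn lower in every SMA library than in any WT library, so the ratio could not have overlapped. Its separation restates the changes of these genes and is not a further result.

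**Figure D3:**
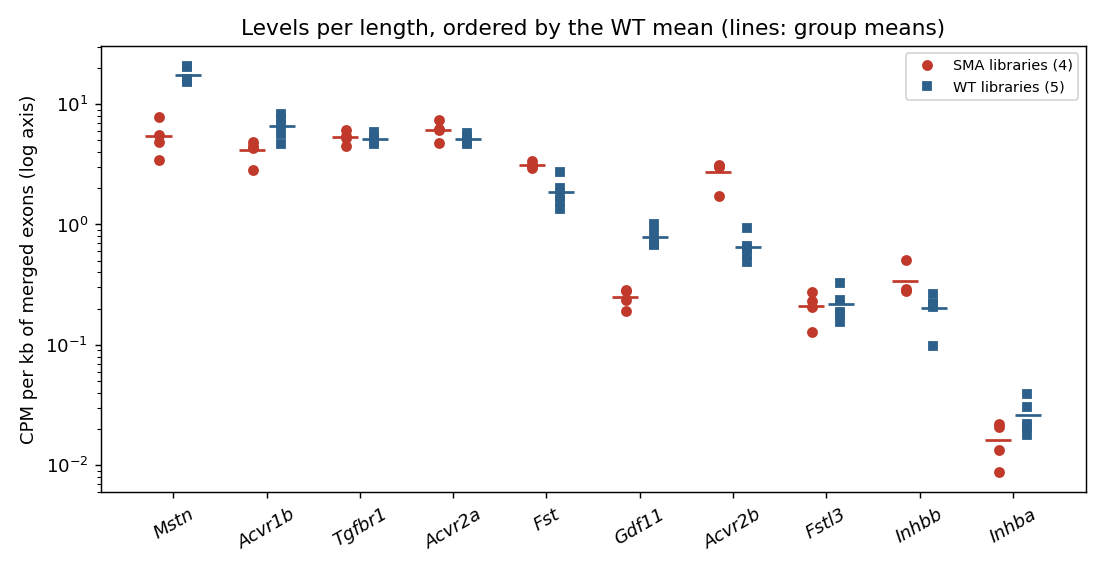
CPM per kb of merged exons on a log axis for the 10 genes, ordered by their WT mean, with SMA libraries as red circles left of WT libraries as blue squares and group means as lines. Mstn stands above every other member in WT and among the receptors in SMA, and Acvr2b reaches 2.73 CPM per kb in SMA, beside 0.652 in WT.

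**Figure D4:**
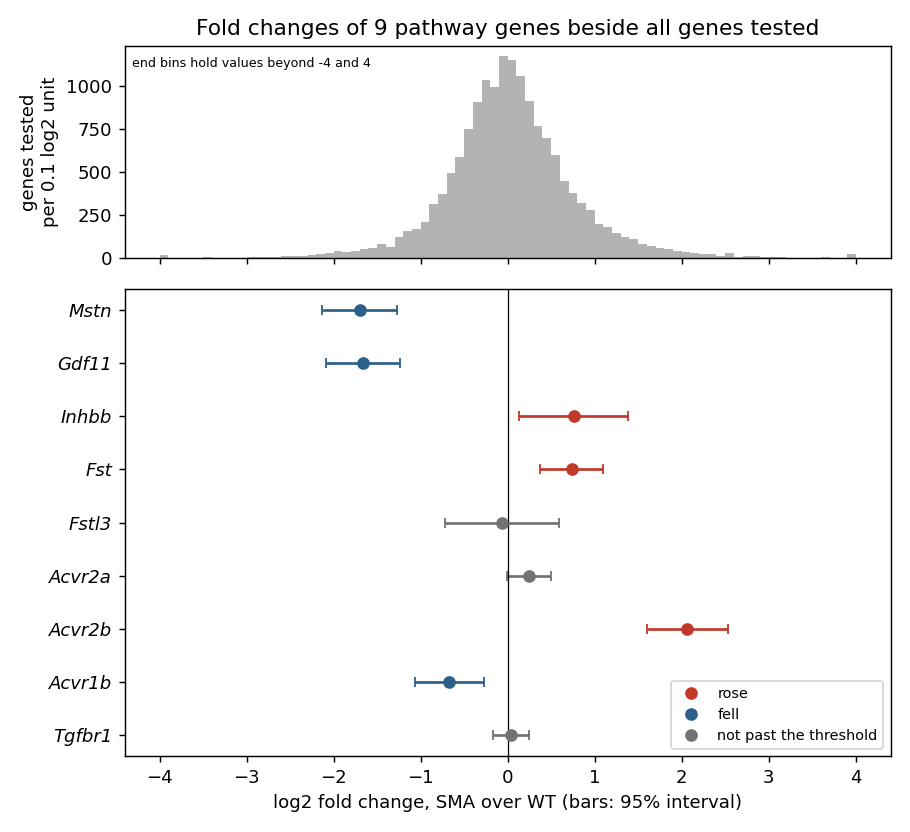
The upper panel counts all 15873 genes tested by log2 fold change, SMA over WT, and the lower panel gives the 9 tested members with 95% intervals, in red where they rose, blue where they fell and grey where they did not pass. Mstn at -1.70, Gdf11 at -1.66 and Acvr2b at 2.06 lie in the tails of the distribution, and Fstl3 and Tgfbr1 near its centre.

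Other genes of the pathway were grouped by role into 7 lists of 57 genes, of which 52 passed the filter on low counts. Of these, 12 rose, 17 fell and 23 did not pass by edgeR's quasi-likelihood test, with a median log2 fold change of -0.10, beside 0.0060 over all genes. The counts given for each list stand beside the same background, in which 27.7% of all genes rose and 27.2% fell, and with 5 to 11 genes a list they are descriptions only. The split of 12 that rose and 17 that fell depended on the scaling: with total counts, which moved the median of all genes to 0.24, 20 rose and 10 fell. Among all genes, 4393 rose and 4319 fell as reported, and 6385 rose and 2164 fell with total counts. The changes given here are relative to the TMM scaling.

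Among other ligands of the branch, 3 of 5 tested fell and 2 did not pass. Inha, the alpha subunit that turns activin chains into inhibins, had a log2 fold change of -0.64 ± 0.091 (SE), with 28.4 ± 2.38 CPM in SMA and 44.2 ± 4.46 CPM in WT (SD, n = 4 and 5). Tgfb2, a TGF-beta ligand gene, fell by 0.81 ± 0.093, with 17.9 ± 1.75 CPM in SMA and 31.4 ± 2.72 CPM in WT. The adjusted p-values were 1.10e-04 for Inha and 2.01e-05 for Tgfb2 by edgeR's quasi-likelihood test.

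Of 8 other receptors and co-receptors tested, 2 rose, 2 fell and 4 did not pass. Igsf1, a membrane immunoglobulin protein once proposed as an inhibin co-receptor, had a log2 fold change of 1.28 ± 0.31 (SE), with 44.2 ± 11.5 CPM in SMA and 18.2 ± 7.21 CPM in WT (SD, n = 4 and 5), and it passed the threshold. Tgfbr3, which encodes betaglycan, the co-receptor of TGF-beta2 and inhibin, rose by 0.99 ± 0.087, with 51.9 ± 2.18 CPM in SMA and 26.1 ± 2.95 CPM in WT. Acvr1, a type I receptor of bone morphogenetic proteins, fell by 0.65 ± 0.14. Among genes of ligand processing and latency 1 rose, 3 fell and 5 did not pass. Furin, a protease that cuts the precursors of these ligands, rose by 0.57 ± 0.11, with 64.2 CPM in SMA 3 and 89.1 to 91.7 CPM in SMA 1, 2 and 4, against 50.0 to 62.7 CPM in WT. Pcsk6, a related protease gene, fell by 0.64 ± 0.15, but with total counts as the scaling its adjusted p was 0.0648 by edgeR. Ltbp2, a matrix protein gene, fell by 1.03 ± 0.32, and lost its call with sex as a covariate, with an adjusted p of 0.284 by edgeR, and under scaling to total counts, at 0.0596.

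Of 6 other binders of myostatin or activin 2 rose, 3 fell and 1 did not pass. Wfikkn1, whose product binds myostatin and its propeptide, had 5.70, 2.69, 2.46 and 4.91 CPM in the SMA libraries, against 0.879, 0.742, 0.953, 0.909 and 0.673 CPM in the WT libraries. All SMA libraries lay above all WT libraries. The log2 fold change of Wfikkn1 was 2.24 ± 0.27 (SE), and its adjusted p by edgeR's quasi-likelihood test was 3.31e-05. The related gene Wfikkn2 had a log2 fold change of 0.063 ± 0.17, which did not pass. Tcap, a Z-disc protein gene whose product telethonin is also reported to bind myostatin, rose by 1.16 ± 0.19. The 3 that fell were the small matrix proteoglycan genes Dcn, Bgn and Fmod, with log2 fold changes of -0.48, -0.76 and -0.98. Tendon markers fell with them in 4 of 4 cases, with sums of 13.8 to 29.8 CPM in SMA and 39.2 to 85.1 CPM in WT, and their part in these falls was not tested.

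Of 11 genes of Smads and their regulators 4 rose, 3 fell and 4 did not pass. Smad3, which with Smad2 carries the signal to the nucleus, had 38.9, 45.5, 39.6 and 48.2 CPM in the SMA libraries, against 102, 101, 95.9, 94.0 and 131 CPM in the WT libraries. Every SMA library stood at about the same level, far below the lowest WT library. Smad3 fell by 1.28 ± 0.11 on the log2 scale (± SE), and its adjusted p by edgeR's quasi-likelihood test was 2.71e-06, while Smad2 had a log2 fold change of 0.13 ± 0.082 and did not pass. Skil, which encodes the Smad corepressor SnoN and is itself induced by TGF-beta signalling, fell by 1.08 ± 0.14, with 9.64 ± 1.41 CPM in SMA and 20.4 ± 3.60 CPM in WT (SD, n = 4 and 5).

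Of 7 tested target genes of Smad2 and Smad3, 2 fell and 5 did not pass, a share that fell close to the 27.2% of all genes. Pmepa1, a feedback inhibitor induced by TGF-beta, had 7.36, 8.79, 8.95 and 10.1 CPM in the SMA libraries, against 17.9, 19.1, 17.0, 16.6 and 18.9 CPM in the WT libraries. The groups were well apart, with a log2 fold change of -1.03 ± 0.10 (SE). Ldlrad4, a related inhibitor gene, fell by 0.77 ± 0.14. The adjusted p-values were 6.28e-06 for Pmepa1 and 7.41e-04 for Ldlrad4 by edgeR's quasi-likelihood test. Targets that did not pass included Ctgf with a log2 fold change of 0.35 ± 0.23 and Junb with 0.017 ± 0.24.

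Of 6 known regulators of Mstn transcription 3 rose, 1 fell and 2 did not pass. Foxo1 and Foxo3, transcription factors active in muscle wasting, rose by 1.02 ± 0.17 and 1.54 ± 0.31 on the log2 scale (SE). Foxo3 had 7.88 CPM in SMA 3, within the WT range of 3.67 to 9.15 CPM, while SMA 1, 2 and 4 held 23.0 to 23.2 CPM. Cebpd, a factor induced by glucocorticoids, rose by 1.15 ± 0.34, with 48.8, 58.3, 13.0 and 25.7 CPM in the SMA libraries against 13.6 to 22.1 CPM in WT, and lost its call without SMA 2, with an adjusted p of 0.0543 by edgeR. Nr3c1, which encodes the glucocorticoid receptor, fell by 0.62 ± 0.11. Myod1 and Mef2c had log2 fold changes of -0.14 ± 0.13 and -0.31 ± 0.15 and did not pass.

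**Figure D5:**
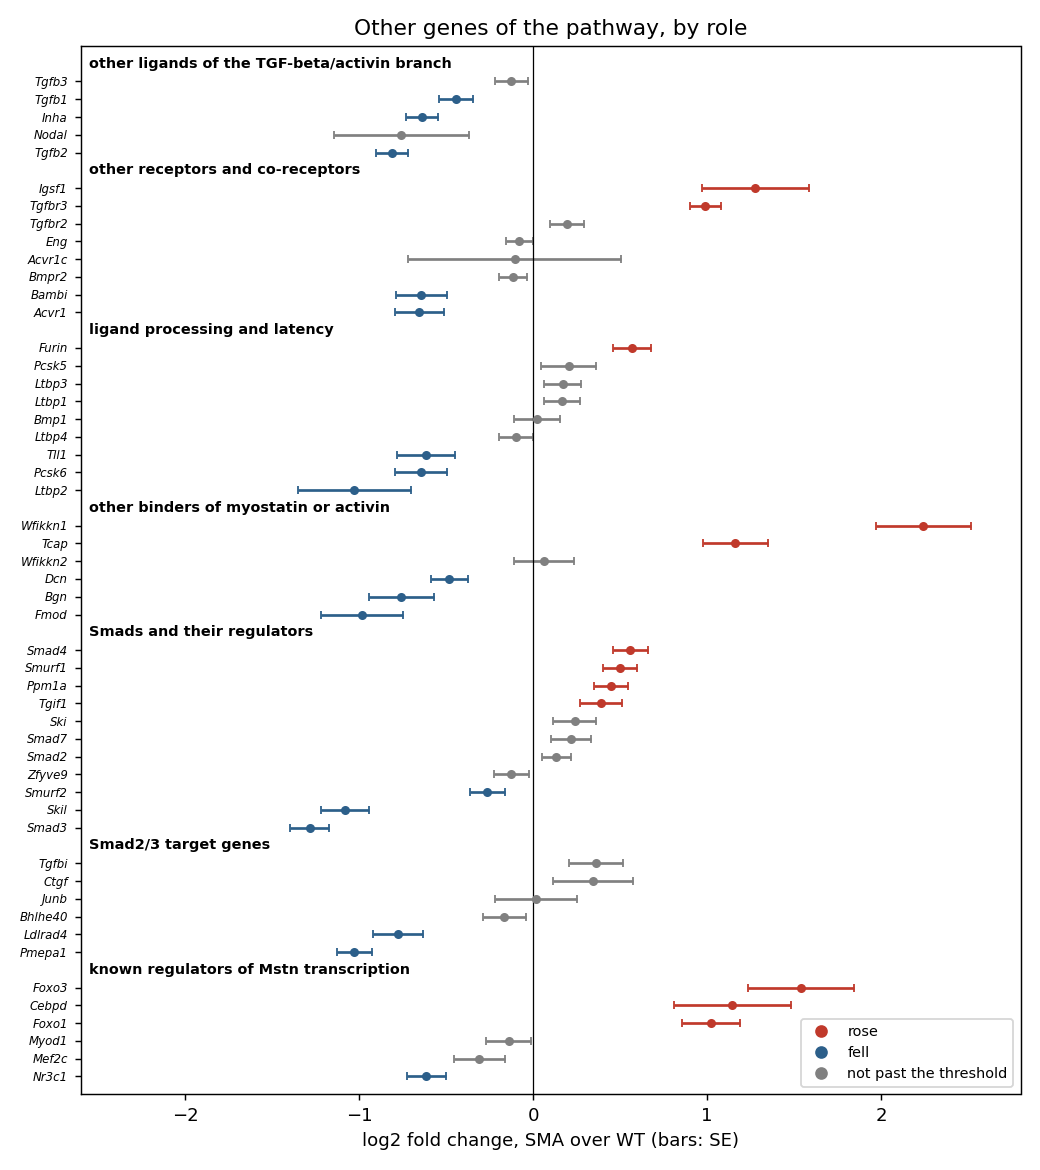
Log2 fold changes, SMA over WT, of the tested pathway genes by role, without 1 gene that did not pass and is not reported, with SE as bars, in red where a gene rose, blue where it fell and grey where it did not pass. Wfikkn1 at 2.24 is the highest, and Smad3 at -1.28 and Skil at -1.08 are the lowest.

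Over the 9 libraries the log2 CPM of Mstn was most like that of Tmtc1, Reep1, Rps6ka3, Tigd4 and Tbc1d1, with Pearson correlations of 0.989 to 0.992 among 10695 genes compared. All 5 were lower in SMA, so the points share the difference between the groups, and libraries and scaling are shared as well. Taken as deviations from the group means, Acvr2a was the gene most like Mstn, with a correlation of 0.975, followed by Psma3, Dcaf10, Ccny and Hspa14 at 0.950 to 0.974. These are the highest of 10695 genes over 9 libraries, again with libraries and scaling shared, and why they are alike was not tested. Both Mstn and Acvr2a were lowest in SMA 3 and highest in SMA 4 within the SMA group.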

How the data were processed

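The values analysed are the authors' deposited raw counts, whole numbers for each gene in each library. A second table deposited by the authors gives a normalized signal, in which every count of a library is divided by the same size factor (0.734 to 1.23). Those factors equal the median-of-ratios factors recomputed from the counts. Per the labels' protocols, 200 ng of RNA per library with a RIN over 7 was made into stranded mRNA libraries and read as pairs of 75 bases. Per the submitters' processing notes, HTSeq 0.9.1, DESeq2 1.16.1 and build mm10 are named, with no role stated. Which aligner, annotation and strand setting were used is not stated in them.

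The test was run on counts with edgeR 4.0.16 under R 4.3.3 (filterByExpr, TMM scaling, quasi-likelihood test with group as the 1 term, all 9 libraries, Benjamini-Hochberg adjustment over 15873 genes, threshold 0.05). Standard errors are the log2 fold change divided by the square root of F, and 95% intervals use the fit's degrees of freedom. log2 CPM used a prior count of 2. Alternatives used DESeq2 1.42.0, limma 3.58.1, other scalings and filters, a replicate block, a sex covariate and left-out libraries. The procedure was also run on simulated counts in which far fewer genes changed than passed here. That run therefore does not give its error rate on these data. Members and lists were chosen with earlier results of these data known. Besides the 10 members, genes named were those of each list with at least a 2-fold change past the threshold, its 2 lowest adjusted p-values, and the 5 most like Mstn by each of 2 correlations, among genes with a mean of at least 5 CPM. Others named, among them Smad2, Wfikkn2, Dcn, Bgn, Fmod, Ctgf, Junb, Myod1 and Mef2c, were added after their values were seen. Ccn2 matched by its older name Ctgf. Values of 1 listed gene are not reported here, though the counts of its list include it. Every pair of replicates differed beyond counting noise, the chi-square per degree of freedom being 11.3 to 81.3. Depth limits the genes with few reads, and CPM is relative, so a shift of all transcripts together cannot be seen.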

Additional observations from a re-analysis of the deposited data

Results flagged for a closer look

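Within groups, 1 library stood far from the others for 6 of 28 genes examined, in 56 tests of a group, and chance flags about 1 in 20 groups. SMA 3 was that library in 5 of them. Inhbb had 2.15 CPM in SMA 3, against 1.20 to 1.24 CPM in the other SMA libraries. Acvr2b had 6.71 CPM in SMA 3, against 11.8 to 12.4 CPM. Foxo3 had 7.88 CPM in SMA 3, against 23.0 to 23.2 CPM. Furin had 64.2 CPM in SMA 3, against 89.1 to 91.7 CPM, and Igsf1 had 27.1 CPM in SMA 3, against 48.2 to 52.5 CPM. In WT 5 Smad3 had 131 CPM, against 94.0 to 102 CPM in the other WT libraries. Acvr2b, Foxo3, Furin, Igsf1 and Smad3 kept their direction and call without these libraries, and Inhbb lost its call without SMA 3.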

How the results depend on the processing

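Mstn, Gdf11, Fst, Acvr2b and Acvr1b kept their direction and call in all 18 alternatives each, with log2 fold changes of -1.93 to -1.46, -1.73 to -1.44, 0.60 to 0.95, 1.96 to 2.40 and -0.77 to -0.42. Inhbb lost its call with no filter on low counts, at a log2 fold change of 0.74, with sex as a covariate, at 0.98, without WT 5 and SMA 3 together, at 0.51, and without any single library but WT 4, its values without single libraries being 0.51 to 0.87. Acvr2a passed under scaling to total counts, at 0.48, without WT 5 and SMA 3 together, at 0.37, and without SMA 3, its values without single libraries being 0.14 to 0.35. Fstl3 turned positive under scaling to total counts, at 0.17, and with sex as a covariate, at 0.090, and ranged over -0.22 to 0.13 without single libraries. Tgfbr1 ranged over -0.034 to 0.11 without single libraries. The cause of these shifts was not tested. With the strict filter of 1 CPM in at least 4 libraries, Fstl3 was not tested. The counts of members called (5 to 7), of pathway genes (26 to 33) and of all genes (6883 to 9422) stayed within 1.5 times those reported.

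The groups share replicate numbers, but a pairing by number was not seen. The correlation of deviations between same-numbered libraries was -0.048 to 0.12, and 0 of 4 SMA libraries were closest to their own number. With so few libraries, a shared origin of same-numbered libraries could still go unseen. With the replicate number as a block, on libraries 1 to 4 of each group, 7872 genes passed, against 8712 as reported, and 5 members, against 6. Inhbb, with a log2 fold change of 0.76, lost its call under the block, as did Cebpd.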
